A study of Mus musculus with 19 samples.

Results

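Kidney mRNA of 9 genes that move acid and base across tubular cells was examined after 3 days of fasting in aged and young male mice. The genes were the sodium-proton exchangers Slc9a3 and Slc9a8, the bicarbonate transporters Slc4a1, Slc4a4, Slc4a7 and Slc26a4, and the carbonic anhydrases Car2, Car4 and Car14. They were taken as a fixed list by function, with earlier results of these data known. Among the top genes that the paper lists as down-regulated by fasting are Slc9a8 in both ages and Car4 in aged mice. Counts of members that passed are therefore a description of the list. Every probe set of the array that the annotation assigned to one of them alone was kept. This gave 14 of 45141 probe sets for 8 of the 9 genes. No probe set was named for Slc4a7, a sodium-bicarbonate cotransporter, which was therefore not analysed here.

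Total RNA came from frozen pieces of both kidneys of a mouse, with 1 Affymetrix HT MG-430 PM array per mouse and no renal ischemia or surgery. Of the aged-overweight mice, F1 hybrids of FVB and C57BL/6J with an average age of 73 weeks and a weight of about 47 g, 5 were fasted with free access to water and 5 were fed ad libitum. Of the young-lean C57BL/6J mice, which were 10 to 14 weeks old and weighed 22 to 25 g, 4 were fasted in the same way and 5 were fed ad libitum. Strain, age and body weight differ together between the ages, and the arrays of the ages seem to have been normalized apart. The parts of these in any difference between ages cannot be told apart.

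The proximal tubule reclaims most of the filtered bicarbonate. Sodium-proton exchange at the luminal membrane, carried mainly by the exchanger NHE3 (Slc9a3), secretes acid, a membrane-bound carbonic anhydrase (Car4) and the cytosolic Car2 interconvert carbon dioxide and bicarbonate on either side of that membrane, and the cotransporter NBCe1 (Slc4a4) returns bicarbonate to the blood. In the collecting duct, type A intercalated cells secrete acid and carry the anion exchanger AE1 (Slc4a1) on their basolateral side, while type B cells secrete bicarbonate through pendrin (Slc26a4).

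The values are RMA levels on the log2 scale. Array medians ran from 3.46 to 3.49 for aged fasted, 3.44 to 3.48 for aged ad libitum, 4.18 to 4.21 for young fasted and 4.15 to 4.19 for young ad libitum kidneys. Because of this offset, diets were compared within each age, and between the ages only the size of the diet effect was compared. The ages did not differ by the same amount at all member probe sets. A dim Slc4a4 probe set, 1450169_PM_at, averaged 2.70 and 2.51 in aged fasted and ad libitum fed mice, against 3.33 and 3.35 in young ones. Car2 averaged 11.57 and 11.37 in aged, against 11.50 and 11.25 in young mice. In ad libitum fed mice Slc9a3 averaged 9.58 in aged and 9.09 in young, and Slc26a4 8.18 and 9.16. Strain, age and body weight differ too, so single probe sets cannot show how the offset depends on level. Effects at low signal may still not be on one scale in both ages. Markers of proximal tubule (Cubn, Slc5a12, Aqp1) and thick ascending limb (Umod, Slc12a1) were above a log2 level of 10.6 on every array. The other measured markers of these segments were lower, Slc5a2 at 8.05 to 9.99 and Cldn16 at 6.64 to 8.15 over all arrays. The defining transcripts of kidney were thus present. Liver transcripts were uneven, with a median level of 6 liver markers of 10.80 in aged fasted mouse33. The remaining aged fasted mice had 5.49 to 7.16 and the aged ad libitum fed ones 5.18 to 7.77. It was 8.52 in young fasted mouse339, with 6.90 to 7.93 in the rest of that group and 6.17 to 7.95 in young ad libitum fed mice. Results that lose their call without mouse33 and mouse339 are named where they occur.

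In both ages fasting lowered 2 of the 8 measured genes strongly, Slc9a8 and Car4, while the main proximal exchanger Slc9a3 differed by at most 0.34 and the bicarbonate exporter Slc4a4 by at most 0.31 log2 units between the diets. In aged kidneys 4 of the 14 probe sets passed the test (limma, adjusted p of at most 0.05 over all probe sets), both probe sets of Slc9a8 and both of Car4, and all 4 were lower. Among all probe sets 6.48% passed, 3.32% lower and 3.16% higher. The 4 member probe sets also differed by a fold of at least 1.5, against 1.89% of all probe sets (0.879% lower). In young kidneys 7 of the 14 passed, 6 with a lower and 1 with a higher level, where 19.6% of all probe sets passed, 9.54% lower and 10.1% higher. At a fold of at least 1.5 the same 4 probe sets of Slc9a8 and Car4 were left in young kidneys, against 5.31% of all (2.68% lower). Read by gene at the brightest probe set, 2 of the 8 genes passed in aged and 4 of the 8 in young kidneys, all lower, against 9.16% and 23.2% of all 17097 genes. The fasted and the ad libitum fed mice did not overlap for 6 of the 14 probe sets in aged and 8 of the 14 in young kidneys, against 7.25% and 17.2% of all probe sets. The median log2 fold change of the 14 probe sets was -0.02 in aged and -0.07 in young kidneys, against a median over all probe sets within 0.01 of zero in both. Levels in whole tissue do not tell fewer cells of one type from less RNA per cell.

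**Figure D1:**
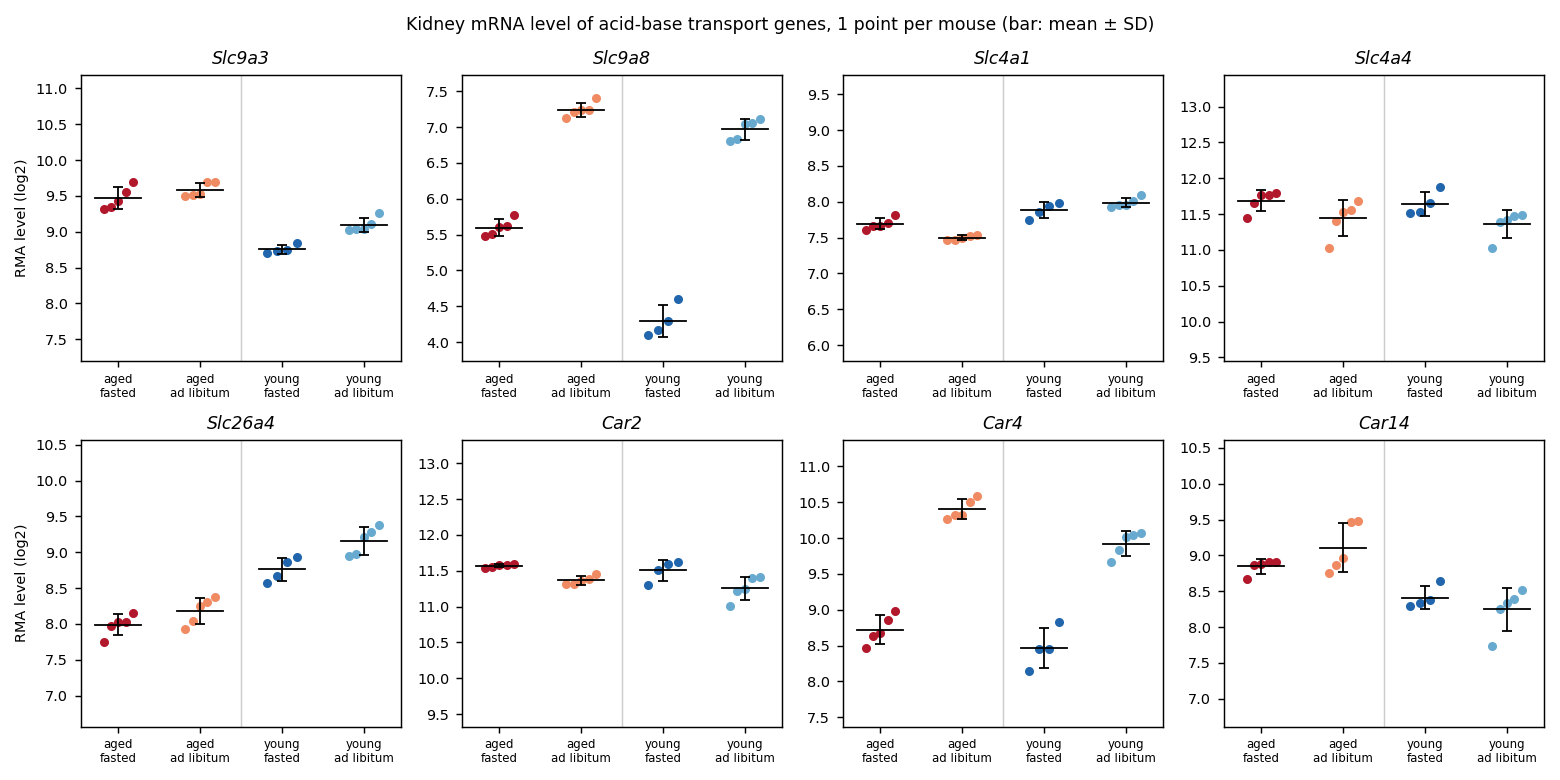
RMA level (log2) of the 8 measured genes at their brightest probe set in each mouse, for aged fasted, aged ad libitum fed, young fasted and young ad libitum fed groups. Points are mice and bars are the mean ± SD, and the panels span at least 4 log2 units each. Slc9a8 and Car4 are separated by diet in both ages, while in the other panels the group means of the diets lie within 0.5 log2 units of each other.

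The sequence around the start site of both genes is shown because they were the members that fell together in both ages. The windows hold 250 bases before and 50 bases from the start site on, from RefSeq on the GRCm38.p6 build, and the capitals mark the 50 bases that begin at the start site. Slc9a8 is on the plus strand at chr2:167421460-167421759, and Car4 is on the plus strand at chr11:84957504-84957803.
Slc9a8: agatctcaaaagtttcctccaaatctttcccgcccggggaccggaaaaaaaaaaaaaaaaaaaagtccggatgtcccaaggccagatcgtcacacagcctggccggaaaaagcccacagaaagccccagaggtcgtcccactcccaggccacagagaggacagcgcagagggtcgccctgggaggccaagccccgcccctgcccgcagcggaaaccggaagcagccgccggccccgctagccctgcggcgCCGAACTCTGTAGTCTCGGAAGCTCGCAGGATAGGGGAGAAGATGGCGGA
Car4: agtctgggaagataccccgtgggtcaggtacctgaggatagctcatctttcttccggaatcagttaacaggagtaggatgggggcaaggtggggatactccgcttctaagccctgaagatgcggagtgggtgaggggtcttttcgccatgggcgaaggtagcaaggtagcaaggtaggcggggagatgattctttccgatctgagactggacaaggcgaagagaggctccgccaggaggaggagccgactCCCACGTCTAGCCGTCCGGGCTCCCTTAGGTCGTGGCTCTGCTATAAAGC
The share of G and C was 61.3% in the Slc9a8 and 57.3% in the Car4 window, against a median of 52.7% over all 32851 windows of the table. Of 5 motifs searched on both strands, none was found in these windows or in the other 6 windows of member genes (7 of the 9 genes had a window). They were the FOXO motif GTAAACA (3.65% of all windows hold it), the cAMP response element TGACGTCA (1.79%), and the full palindromic or repeated forms of the HNF1 motif (0.00913%), the direct repeat 1 of nuclear receptors (0.0396%) and the glucocorticoid response element (0.00913%).

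Slc9a8 encodes NHE8, a sodium-proton exchanger found at the apical membrane and in intracellular compartments of proximal tubule cells. At its brightest probe set, 1454865_PM_at, the level, in order of mouse number, was 5.61, 5.47, 5.61, 5.51 and 5.78 in aged fasted mice, against 7.24, 7.21, 7.13, 7.40 and 7.24 in aged ad libitum fed mice. The lowest ad libitum fed mouse was thus well above the highest fasted mouse. The diets differed by -1.65 on the log2 scale, fasted minus ad libitum fed (standard error, SE, 0.08, adjusted p = 1.29e-06), a 3.13-fold lower level in fasted mice.
In young kidneys the same probe set was at 4.09, 4.17, 4.30 and 4.60 in fasted mice, against 6.80, 7.04, 7.11, 7.06 and 6.83 in ad libitum fed mice. The groups were again far apart, and in 2 of the 4 fasted mice the level was below the median of the whole array. The diets differed by -2.68 (SE 0.11, adjusted p = 1.07e-07), a 6.40-fold lower level in the RMA values. Because the fasted level lay around the array median and the deposited values carry no detection calls, whether it was above background is not known, and the size of this fold is uncertain. Only 0.0354% of all probe sets changed by at least as much in young kidneys, and 0.104% did in aged kidneys at the aged value.

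The fall of Slc9a8 was smaller in aged than in young kidneys at this probe set. The difference between the effects, aged minus young, was 1.03 on the log2 scale (SE 0.13, 95% confidence interval 0.75 to 1.31, adjusted p = 0.000361), where 1.95% of all probe sets passed, 1.21% higher and 0.747% lower. It was the 1 of the 14 probe sets that passed in that comparison. Without mouse33 and mouse339 it was 0.96 (adjusted p = 0.00189). The ages may not share one scale at low signal, so the size of this difference is uncertain.
The second probe set of the gene, 1426274_PM_at, fell in both ages by less. It was at 4.09, 4.40, 4.26, 4.02 and 4.10 in aged fasted mice, against 5.11, 4.54, 5.15, 5.59 and 4.87 in aged ad libitum fed mice. The diets differed by -0.88 (SE 0.16, adjusted p = 0.00536), with no overlap between the diets, though ad libitum fed mouse36 came close to the fasted mice. In young kidneys it was at 3.60, 3.76, 4.09 and 4.04 in fasted mice, against 5.06, 5.12, 5.16, 4.88 and 4.94 in ad libitum fed mice, with a log2 change of -1.16 (SE 0.10, adjusted p = 2.23e-05).
All 4 young fasted values of the second probe set were below the median of their arrays, whereas all 5 aged fasted values were above it. Its difference between the ages was 0.28 (95% confidence interval -0.15 to 0.71, adjusted p = 0.627), so that the smaller fall in aged kidneys passed at 1 of the 2 probe sets. With the young fasted mice below the array median, the second probe set does not settle whether the ages differ.

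**Figure D2:**
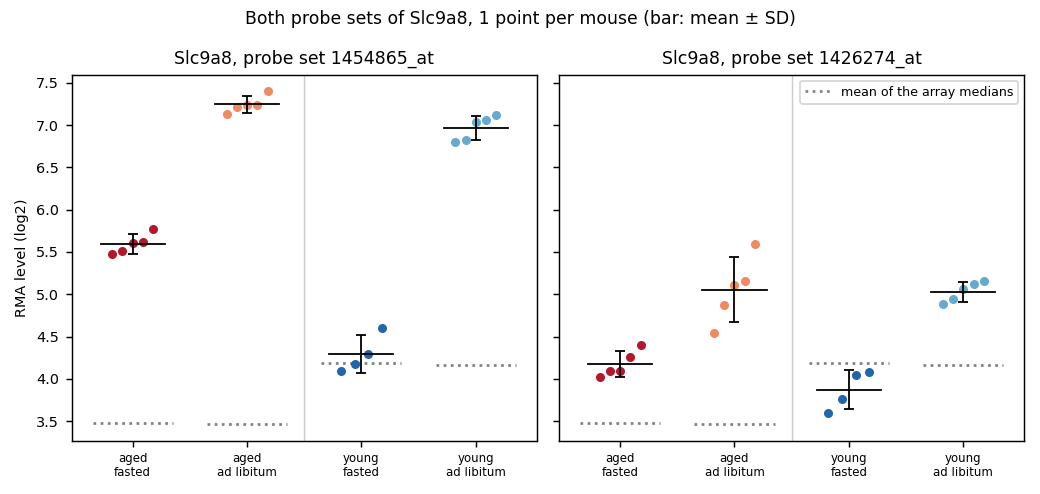
RMA level (log2) of both Slc9a8 probe sets in each mouse by age and diet, with the mean ± SD of each group and a dotted line at the mean of the array medians of that group. Fasted mice lie below ad libitum fed mice in all 4 pairs, and the young fasted mice lie near the dotted line at 1454865_PM_at and below it at 1426274_PM_at.

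Slc9a3, the exchanger that carries most of proximal acid secretion, fell slightly in young kidneys. Its probe set, 1441236_PM_at, was at 8.75, 8.70, 8.85 and 8.73 in young fasted mice, against 9.26, 9.04, 9.02, 9.11 and 9.03 in young ad libitum fed mice. The groups did not overlap, with a log2 change of -0.34 (SE 0.07, adjusted p = 0.00391), a 1.26-fold lower level. In aged kidneys it was at 9.43, 9.32, 9.56, 9.69 and 9.35 in fasted mice, against 9.69, 9.51, 9.53, 9.69 and 9.50 in ad libitum fed mice. These groups overlapped, and the log2 fold change of -0.11 had a 95% confidence interval of -0.30 to 0.07 (adjusted p = 0.536). The difference between the ages was 0.22 (adjusted p = 0.383) and did not pass the test.

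Slc4a4, the cotransporter that returns bicarbonate to the blood, was measured by 4 probe sets, of which 1450169_PM_at lay below the median of every array. At the brightest, 1421225_PM_a_at, the level was 11.45, 11.66, 11.79, 11.77 and 11.77 in aged fasted mice, against 11.53, 11.69, 11.56, 11.03 and 11.40 in aged ad libitum fed mice. The groups overlapped, and the log2 fold change of 0.25 (95% confidence interval -0.0036 to 0.50) did not pass (adjusted p = 0.275). In young kidneys it was at 11.65, 11.87, 11.53 and 11.51 in fasted mice, against 11.39, 11.41, 11.48, 11.02 and 11.48 in ad libitum fed mice. Here the groups were just apart, but the log2 fold change of 0.28 (SE 0.11, adjusted p = 0.0932) did not pass either.
At 1426432_PM_a_at young fasted mice had 10.76, 10.86, 10.60 and 10.60, against 10.47, 10.48, 10.55, 10.10 and 10.35 in young ad libitum fed mice, without overlap. This probe set rose in young kidneys by a log2 change of 0.31 (SE 0.10, adjusted p = 0.0409) and was at 0.28 in aged kidneys (adjusted p = 0.256). This call ended when any one of 7 of the 9 young mice was left out (young ad libitum fed mouse346, mouse347, mouse349 or mouse350, or young fasted mouse339, mouse340 or mouse344), and also without mouse33 and mouse339 together (adjusted p = 0.0905). At 1452071_PM_at the log2 fold change was 0.27 in aged and 0.14 in young kidneys, and neither passed. Without aged ad libitum fed mouse40 the aged values were 0.14 at 1421225_PM_a_at, 0.16 at 1426432_PM_a_at and 0.11 at 1452071_PM_at. In each age 1 ad libitum fed mouse was low at this gene, mouse40 among the aged (10.02 at 1452071_PM_at, against 10.68 to 10.92 in the other 4) and mouse349 among the young (11.02 at 1421225_PM_a_at, against 11.39 to 11.48 in the other 4).

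In the collecting duct genes the changes were small. Slc26a4 (pendrin), the chloride-bicarbonate exchanger of type B intercalated cells, was at 8.58, 8.93, 8.86 and 8.67 in young fasted mice, against 8.98, 9.28, 9.38, 8.94 and 9.22 in young ad libitum fed mice. All 4 fasted mice were below the 5 ad libitum fed mice, the nearest pair almost touching, and the diets differed by -0.40 (SE 0.11, adjusted p = 0.0208). The call ended without young ad libitum fed mouse347 (adjusted p = 0.0521) or without young fasted mouse339 (adjusted p = 0.0593) or mouse344 (adjusted p = 0.0599). In aged kidneys it was at 8.03, 7.75, 8.15, 7.98 and 8.02 in fasted mice, against 8.37, 7.93, 8.04, 8.25 and 8.31 in ad libitum fed mice, with overlap and a log2 fold change of -0.19 (95% confidence interval -0.41 to 0.02, adjusted p = 0.332).
Slc4a1, the anion exchanger AE1 of type A intercalated cells and of red cells, was at 7.67, 7.81, 7.66, 7.70 and 7.61 in aged fasted mice, against 7.46, 7.46, 7.54, 7.53 and 7.49 in aged ad libitum fed mice (probe set 1416464_PM_at). Every fasted mouse was above every ad libitum fed mouse, but the log2 fold change of 0.20 (SE 0.06) did not pass (adjusted p = 0.0827). In young kidneys it was at 7.86, 7.74, 7.94 and 7.99 in fasted mice, against 7.96, 8.02, 7.96, 8.09 and 7.92 in ad libitum fed mice, with a log2 fold change of -0.11 (adjusted p = 0.320).
The difference between the ages was 0.30 for Slc4a1 (95% confidence interval 0.13 to 0.48) and missed the threshold (adjusted p = 0.0713). Its other probe set, 1431743_PM_a_at, was below the median of every array and differed by 0.09 (adjusted p = 0.759). The 5 measured of 6 intercalated cell markers had adjusted p from 0.0876 to 0.860 in aged kidneys, and 1 fell in young kidneys (Insrr, -0.42). Their summed level was 9.21 to 9.46 in aged fasted, 8.97 to 9.34 in aged ad libitum fed, 9.89 to 10.01 in young fasted and 9.81 to 10.16 in young ad libitum fed mice. The 5 measured of 11 red cell markers had adjusted p from 0.0628 to 0.889 in aged kidneys, and 3 fell in young kidneys (Hba-a1 by -0.75, Hbb-b2 by -0.56 and Alas2 by -1.01). In aged kidneys these 3 were at -0.28, -0.27 and -0.62, and Hba-a2 and Epb42 at -0.04 and 0.05. The summed level of the 5 red cell markers was 13.01 to 13.57 in aged fasted, 13.42 to 13.72 in aged ad libitum fed, 12.87 to 13.28 in young fasted and 13.49 to 14.09 in young ad libitum fed mice. The part of red cells in the Slc4a1 values was not tested.

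Car4 encodes carbonic anhydrase IV, which is anchored to the outer face of the brush border and of some endothelia. The 2 probe sets gave nearly the same picture. At 1418094_PM_s_at the level was 8.86, 8.67, 8.63, 8.46 and 8.98 in aged fasted mice, against 10.27, 10.59, 10.51, 10.32 and 10.32 in aged ad libitum fed mice. The groups did not overlap, and the diets differed by -1.68 (SE 0.10, adjusted p = 2.62e-06), a 3.20-fold lower level.
Young fasted mice had 8.45, 8.82, 8.15 and 8.45, against 10.01, 10.04, 10.07, 9.66 and 9.83 in young ad libitum fed mice. The highest fasted mouse was clearly below the lowest ad libitum fed mouse, with a log2 change of -1.45 (SE 0.13, adjusted p = 1.83e-05) and a 2.74-fold lower level. At 1448949_PM_at the level was 8.79 to 9.18 in aged fasted mice, against 10.31 to 10.81 in aged ad libitum fed mice. It was 7.83 to 8.13 in young fasted mice, against 9.02 to 9.59 in young ad libitum fed mice. There the log2 fold change was -1.58 (SE 0.11) in aged and -1.39 (SE 0.12) in young kidneys, again without overlap. Within groups the levels of the 2 probe sets moved together over the 19 mice (Pearson r = 0.81, after subtraction of the group means), as a description of probe sets that share their RNA.
The fall of Car4 was not shown to differ between the ages. The difference, aged minus young, was -0.23 (95% confidence interval -0.58 to 0.13, adjusted p = 0.640) at the first and -0.19 (95% confidence interval -0.54 to 0.15, adjusted p = 0.697) at the second probe set.
Among proximal tubule markers, the glucose transporter Slc5a2 moved the same way, by -1.09 in aged and -0.89 in young kidneys, while Cubn and Slc5a12 did not pass in either age and Aqp1 rose in aged kidneys by 0.27. The summed level of the 4 measured of 6 proximal markers was 12.88 to 13.09 in aged fasted and 12.77 to 13.04 in aged ad libitum fed mice. For young kidneys the sum was 12.88 to 13.05 in fasted and 12.80 to 13.09 in ad libitum fed mice. The 5 endothelial markers had adjusted p from 0.381 to 0.791 in aged kidneys, and Kdr fell in young kidneys (-0.27). The part of either cell type in the Car4 values was not tested. Other markers moved with diet too. Of 5 macrophage markers 4 fell in young kidneys, with a summed level of 7.72 to 8.04 in young fasted and 8.40 to 8.90 in young ad libitum fed mice, while in aged kidneys their adjusted p was 0.659 to 0.954. Of 5 brown adipocyte markers, Cidea (2.84) and Cox8b (1.77) passed as higher in young fasted kidneys, but the diets overlapped. Cidea was at 3.25 to 8.56 in young fasted and 2.84 to 3.91 in young ad libitum fed mice, and Cox8b at 3.76 to 7.30 and 3.61 to 4.64. In aged kidneys Ucp1 was uneven in both diets (3.53 to 6.48 in fasted, 3.94 to 7.58 in ad libitum fed mice). Cox7a1 fell in both ages (-0.85 in aged, -0.77 in young), as did the distal convoluted tubule marker Pvalb (-1.13 in aged, -1.01 in young). The other markers of that segment did not pass in either age. Slc12a3 was at -0.19 in aged and 0.09 in young kidneys, and Trpm6 at -0.04 and 0.25. The part of these cells in the values of the member genes was not tested.

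The other 2 carbonic anhydrases did not pass the test in either age. Car2, the cytosolic enzyme of proximal and intercalated cells, was at 11.59, 11.54, 11.59, 11.58 and 11.55 in aged fasted mice, against 11.45, 11.36, 11.31, 11.32 and 11.39 in aged ad libitum fed mice. The groups did not overlap, with a log2 change of 0.21 (SE 0.06) that missed the threshold (adjusted p = 0.0539). In young kidneys it was at 11.61, 11.60, 11.50 and 11.30 in fasted mice, against 11.39, 11.22, 11.25, 11.00 and 11.41 in ad libitum fed mice, with overlap through mouse344 and a log2 fold change of 0.25 (adjusted p = 0.0947). The difference between the ages was -0.04 (95% confidence interval -0.27 to 0.18).
Car14, a membrane-spanning enzyme whose active site faces the tubular fluid, was at 8.67, 8.89, 8.91, 8.87 and 8.91 in aged fasted mice, against 9.46, 8.75, 8.97, 9.48 and 8.87 in aged ad libitum fed mice. Mouse34 and mouse40 stood above the rest, the groups overlapped, and the log2 fold change of -0.26 did not pass (adjusted p = 0.356). It was -0.17 without mouse34 and -0.16 without mouse40. In young kidneys it was at 8.37, 8.64, 8.34 and 8.29 in fasted mice, against 8.25, 8.39, 8.34, 7.74 and 8.52 in ad libitum fed mice, with a log2 fold change of 0.16 (adjusted p = 0.499), which was 0.038 without ad libitum fed mouse349. Of the 3 carbonic anhydrases, Car4 was thus the 1 that passed, in both ages.

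**Figure D3:**
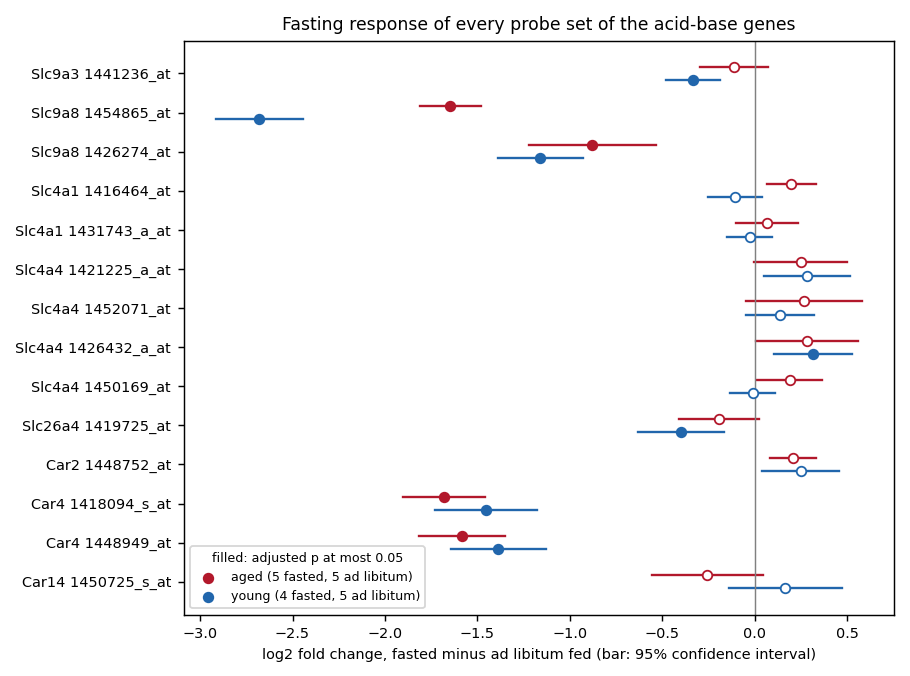
Log2 fold change, fasted minus ad libitum fed, with its 95% confidence interval for each of the 14 probe sets, in aged (red) and young (blue) kidneys. Filled points have an adjusted p of at most 0.05, and both probe sets of Slc9a8 and of Car4 lie left of -0.5 in both ages, while every other point lies between -0.5 and 0.5.

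The rest of the acid-base machinery was described through 5 lists of other genes, each gene read at its brightest probe set. Of 78 listed genes 64 were measured, and of these 4 rose and 5 fell in aged kidneys, where 4.32% of all 17097 genes rose and 4.84% fell. In young kidneys 5 rose and 10 fell, where 10.7% of all genes rose and 12.5% fell. The median log2 fold change of the 64 genes was -0.01 in aged and -0.07 in young kidneys, against -0.01 over all genes in both.
Of 9 other sodium-proton exchangers and regulators, 1 rose and 1 fell in aged kidneys, and 1 rose and 2 fell in young kidneys. Chp1, a calcineurin-like cofactor that sodium-proton exchangers need at the membrane, rose by a log2 change of 0.84 (SE 0.10, adjusted p = 0.000250) in aged and 0.78 (SE 0.07, adjusted p = 1.65e-05) in young kidneys, and its 3 probe sets all rose in both ages. Slc9a3r1 (NHERF1), a scaffold that binds NHE3 at the brush border, fell in both ages, with -0.42 in aged and -0.49 in young kidneys on the log2 scale. Of its 3 probe sets, 1 did not pass in aged kidneys (-0.35, adjusted p = 0.0586). Pdzk1, another scaffold of the brush border, was at -0.15 in aged kidneys, which did not pass, and fell in young kidneys with -0.31.
Of 14 bicarbonate and anion exchangers, 0 rose and 1 fell in aged kidneys, and 1 rose and 2 fell in young kidneys. The largest change was that of Slc26a1, a basolateral sulfate exchanger of the proximal tubule that also carries bicarbonate. It averaged 7.82 ± 0.15 in aged fasted and 8.65 ± 0.18 in aged ad libitum fed mice (SD, n = 5 each), with a log2 change of -0.82 (SE 0.10, adjusted p = 0.000367). In young mice it averaged 6.65 ± 0.17 in the 4 fasted and 8.07 ± 0.18 in the 5 ad libitum fed, with a log2 change of -1.41 (SE 0.11, adjusted p = 6.19e-06). The difference between the ages was 0.59 (adjusted p = 0.0466), and it no longer passed when any one of 15 of the 19 mice was left out (adjusted p from 0.0167 to 0.0998 over all 19). It held without aged fasted mouse38, aged ad libitum fed mouse36, young fasted mouse340 or young ad libitum fed mouse349, and without mouse33 and mouse339 together the adjusted p was 0.109. Without moderation of the variances it was 0.0932. Of all genes 2.44% passed in that comparison, 1.55% higher and 0.895% lower. Slc4a2, the anion exchanger AE2, was at -0.35 in aged kidneys (adjusted p = 0.0542). It passed there in one fit of all arrays (0.0283), with array weights (0.0283) and with quantile normalization (0.0425). It also passed with arrays centred on their medians (0.0460), with the lowest 40% of probe sets left out (0.0446) and without mouse33 (0.0303). It did not pass without moderation of the variances, with variance trend and robust fitting, or without any other single mouse. In young kidneys Slc4a2 fell with -0.40, which did not pass without moderation of the variances (adjusted p = 0.0590). The difference between the ages was 0.05 (adjusted p = 0.936). Slc26a6, an apical anion exchanger, was at 0.10 in aged kidneys (adjusted p = 0.859) and rose in young kidneys with 0.34 (adjusted p = 0.0315). That call was lost without any one of young fasted mouse340, mouse343 and mouse344 and young ad libitum fed mouse347, mouse348 and mouse350. The Slc26a6 call also ended without moderation of the variances (adjusted p = 0.0913), with quantile normalization (0.0635) and in one fit of all arrays (0.243).

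Of 13 other carbonic anhydrases, 0 rose and 1 fell in each age. Car12, a membrane enzyme, fell in aged kidneys with a log2 fold change of -0.29. This call ended without aged fasted mouse38 and in one fit of all arrays (adjusted p = 0.0853). In young kidneys Car12 was at -0.31, which did not pass (adjusted p = 0.139). It passed there without ad libitum fed mouse349 (-0.41, adjusted p = 0.0217). Its difference between the ages was 0.02 (adjusted p = 0.974). Car15, a membrane-anchored enzyme of rodent kidney, fell in young kidneys with -0.56 (SE 0.13; adjusted p = 0.0516 without moderation of the variances) and was at -0.11 in aged kidneys (adjusted p = 0.701).
Of 19 proton pump genes, 2 rose and 2 fell in aged kidneys, and 2 rose and 3 fell in young kidneys. Atp6v0a4, the kidney-specific a4 subunit of the proton ATPase of intercalated and proximal cells, rose by 0.43 (SE 0.09) in aged and 0.68 (SE 0.08) in young kidneys on the log2 scale, while the widely expressed subunit gene Atp6v0a2 fell at its brightest probe set, with -0.42 and -0.61. Its other probe sets, at -0.13 (adjusted p = 0.298) and -0.26 (adjusted p = 0.127) in aged kidneys, did not pass there, and all 3 fell in young kidneys. Atp12a, the colonic-type proton-potassium ATPase, rose by 0.51 in aged and 0.79 in young kidneys at a low signal. The aged call ended without aged fasted mouse41 (adjusted p = 0.0577) and without moderation of the variances (adjusted p = 0.0693). It averaged 3.18 ± 0.24 in the 5 aged fasted and 2.67 ± 0.14 in the 5 aged ad libitum fed mice, and 4.16 ± 0.38 in the 4 young fasted and 3.37 ± 0.12 in the 5 young ad libitum fed mice (SD). All 4 means lay below the array medians of their group, so the size of the change is uncertain. Atp6ap1, an accessory subunit, was at -0.10 in aged kidneys and fell in young kidneys with -0.30.
Of 9 ammonia channel and acid-base sensing genes, 1 rose and 0 fell in aged kidneys, and 1 rose and 2 fell in young kidneys. Ednrb, the endothelin B receptor, through which endothelin acts on tubular acid secretion, rose by 0.81 (SE 0.07, adjusted p = 3.70e-05) in aged and 1.04 (SE 0.12, adjusted p = 0.000114) in young kidneys. Rhcg, an ammonia channel of the collecting duct, averaged 7.53 ± 0.13 in aged fasted, 7.34 ± 0.10 in aged ad libitum fed, 7.55 ± 0.05 in young fasted and 7.89 ± 0.14 in young ad libitum fed mice (SD). It fell in young kidneys with -0.33 (adjusted p = 0.00884) and was at 0.18 in aged kidneys (adjusted p = 0.229), and the difference between the ages was 0.52 (adjusted p = 0.0165). Insrr, a receptor that responds to alkaline fluid, fell in young kidneys with -0.42 (adjusted p = 0.0229), at a level near the array medians, a call that ended without young fasted mouse339 or mouse344.

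**Figure D4:**
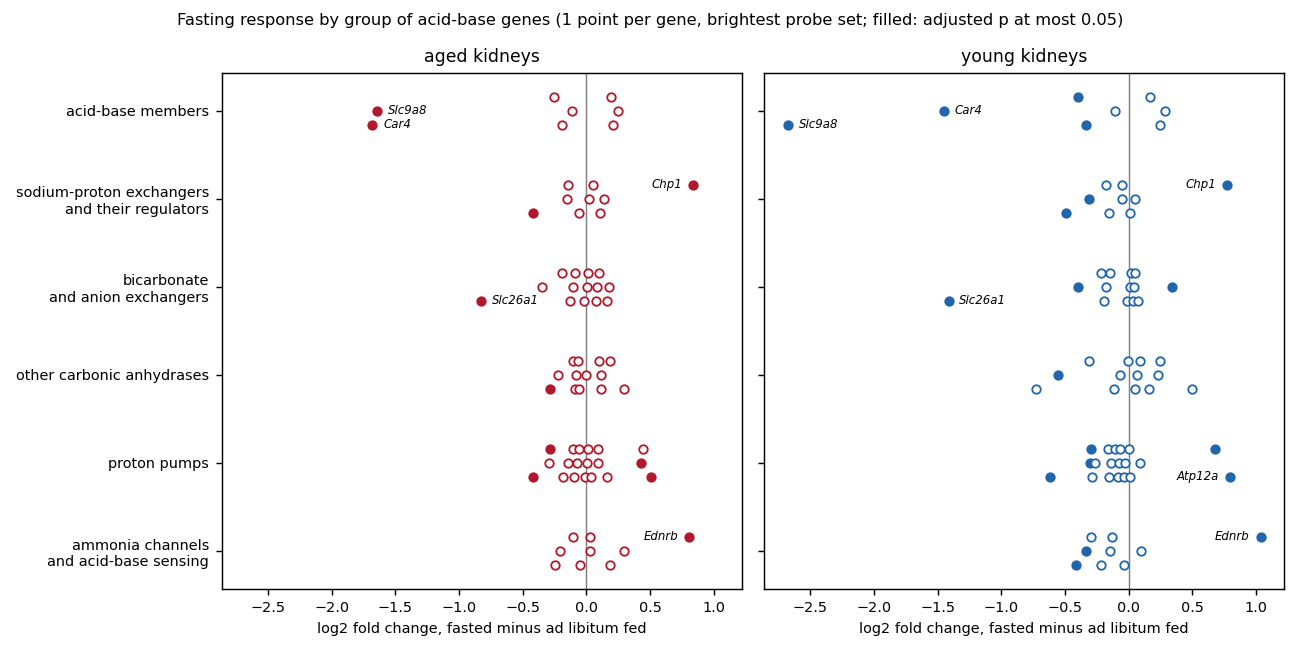
Log2 fold change, fasted minus ad libitum fed, of the 8 measured acid-base genes and of 5 lists of other acid-base genes in aged (left) and young (right) kidneys, 1 point per gene at its brightest probe set. Filled points have an adjusted p of at most 0.05 and those beyond 0.7 in size are named: Slc9a8, Car4 and Slc26a1 lie at the lower end, and Chp1 and Ednrb at the upper end, in both ages, with Atp12a named in young kidneys alone.

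The genes most like Slc9a8 and Car4 were sought over the 19 mice, after subtraction of the mean of each age, as a description. For Slc9a8 they were Herc4 (Pearson r = 0.99), Cndp2 (0.98), Idi1 (0.98), Odc1 (0.98) and Tmco3 (0.98), and for Car4 they were Dao (0.98), Dpp7 (0.97), Mkrn1 (0.97), Abhd14a (0.97) and Slc18a1 (0.97), out of 17097 genes. Much of this likeness is the diet difference that these genes share. After subtraction of the mean of each of the 4 groups, the correlation with Slc9a8 lay between -0.26 and 0.13, while that with Car4 was 0.77 for Dao, 0.53 for Mkrn1, 0.51 for Abhd14a, 0.38 for Dpp7 and 0.22 for Slc18a1. Slc9a8 and Car4 correlated with each other at 0.92 within ages and at 0.01 within groups.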

How the data were processed

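RNA from the kidneys of 19 mice was hybridised, each to 1 array (Affymetrix HT MG-430 PM). The authors background-corrected, normalized and summarized the arrays with RMA, and the deposited values are log2 levels of 45141 probe sets. RMA software versions are not given in the sources used here. Judged by the array medians, aged and young arrays seem to have been normalized apart. In the platform annotation 28898 probe sets have a single gene symbol and 551 more than one, and 15692 are unnamed here because it does not list them.

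Here, limma 3.58.1 in R 4.3.3 compared the diets on the deposited log2 values in separate fits for each age (10 aged, 9 young arrays). A model with 4 groups and 19 arrays gave the difference of the fasting effects, aged minus young. All p-values carry a Benjamini-Hochberg correction across 45141 probe sets, and "passed" means 0.05 or less after it, whatever the fold. The procedure was tested on simulated data. At a log2 change of 0.5 it recovered 65 of 100 changed probe sets in aged and 60 of 100 in young arrays. For the difference between the ages it recovered 88 of 200. At a log2 change of 1 it recovered 95 of 100, 97 of 100 and 185 of 200. Changes of 0.5 or less can therefore be missed. In each age only 100 of 45141 probe sets were changed by each size. That is far fewer than passed in the data (6.48% in aged, 19.6% in young). The correction is stricter when fewer probe sets change, so the recovered shares do not give the sensitivity in the data. The ANOVA of the methods was run as an alternative, as a linear model without moderated variances.

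A gene was read at its brightest probe set. All members are named, and from each list up to 4 genes with the smallest adjusted p of those that passed. Members, lists, motifs and markers were chosen with earlier results of these data known. Leaving out mouse33 and mouse339 together was added after seeing the data. Mice are called by their label numbers, and the number of arrays limits the precision.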

Additional observations from a re-analysis of the deposited data

Results flagged for a closer look

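The response to fasting passed the test of a difference between the ages, in the limma fit of 4 groups, at 3 genes. They were Slc9a8 at 1454865_PM_at (1.03, aged minus young, adjusted p = 0.000361), Slc26a1 (0.59, adjusted p = 0.0466, and 0.0932 without moderation of the variances) and Rhcg (0.52, adjusted p = 0.0165). The other Slc9a8 probe set did not pass (0.28, adjusted p = 0.627), and the ages may not share a scale at low signal. The Slc26a1 call was lost when any one of 15 of the 19 mice was left out. Rhcg was at -0.33 in young kidneys and at 0.18 in aged kidneys, where it did not pass.

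Of 116 groups of 4 or 5 mice examined for a mouse far from the others, 9 held one, where chance gives about 1 in 20. Young ad libitum fed mouse349 was low for Slc4a4 at 1421225_PM_a_at (11.02, others 11.39 to 11.48), Slc26a1 (7.75, others 8.08 to 8.20) and Car12 (8.89, others 9.35 to 9.48). Aged ad libitum fed mouse40 was low for Slc4a4 at 1452071_PM_at (10.02, others 10.68 to 10.92) and 1426432_PM_a_at (9.97, others 10.50 to 10.68) and for Rhcg (7.16, others 7.36 to 7.42). Aged fasted mouse33, whose liver markers were highest, was low for Car14 (8.67, others 8.87 to 8.91). Aged ad libitum fed mouse34 was high for Slc9a3r1 (11.52, others 11.20 to 11.23), and young ad libitum fed mouse346 was high for the dim Slc4a1 probe set 1431743_PM_a_at (3.17, others 3.05 to 3.07).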

How the results depend on the processing

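The falls of Slc9a8 and Car4 passed at both probe sets in both ages under each alternative run except the fold minimum of 2, which Slc9a8 at 1426274_PM_at did not reach in aged kidneys, and no value that passed changed sign. Without any one mouse, 4 of the 14 probe sets passed in aged kidneys in each case, 5 to 7 in young kidneys, and 1 in the comparison between the ages. Of the other acid-base genes, 8 to 10 passed in aged kidneys, against 9 with all mice, and 13 to 21 in young kidneys, against 15. In young kidneys 4 of the 14 probe sets, against 7, passed with a fold change of at least 1.5 and also with one of at least 2. For the 64 other acid-base genes the count was 3 in aged and 6 in young kidneys at a fold of at least 1.5. It was 0 in aged and 2 in young kidneys at a fold of at least 2, and 4 in aged kidneys at an adjusted p of at most 0.01. Of all probe sets, 1.89% in aged and 5.31% in young kidneys passed with a fold of at least 1.5. Shares of all genes at these thresholds, and of all probe sets at a fold of at least 2, were not taken. Whether these counts exceed them is thus not known. Between the ages 2 probe sets passed, against 1, without moderation of the variances and with arrays centred on their medians, the second being Slc4a1 at 1416464_PM_at (adjusted p = 0.0470 and 0.0438). Car2 passed in aged kidneys without moderation (adjusted p = 0.00830), with array weights (0.0454) and with variance trend and robust fitting (0.0140), and in young kidneys in one fit of all arrays (0.0319) and with trend (0.0452). Slc4a1 at 1416464_PM_at passed in aged kidneys without moderation (0.0291) and in one fit of all arrays (0.0368). Slc26a4 did not pass in young kidneys without moderation (adjusted p = 0.0758). The mean of both Slc9a8 probe sets changed by -1.26 in aged and -1.92 in young kidneys, and that of both Slc4a1 probe sets by 0.13 in aged kidneys. With mouse33 and mouse339 both left out, the sign changed near zero for Slc4a1 at 1431743_PM_a_at in young kidneys (0.0047) and for the difference between ages of Slc4a4 (0.028 at 1421225_PM_a_at and 0.040 at 1426432_PM_a_at). When single mice were left out, the sign changed for values that had not passed. These were Slc4a1 at 1431743_PM_a_at (-0.046 to 0.0047) and Slc4a4 at 1450169_PM_at (-0.025 to 0.019) in young kidneys and Slc26a6 in aged kidneys (-0.055 to 0.24). Between the ages they were Slc4a4 (-0.14 to 0.050 at 1421225_PM_a_at, -0.023 to 0.20 at 1452071_PM_at and -0.16 to 0.042 at 1426432_PM_a_at) and Car2 (-0.11 to 0.019). The cause of these shifts was not tested. No paired analysis was possible because the labels give no pairs of mice. The paper describes matching of mice in pairs by body weight and sex before diets were assigned at random. It does not state which of the mice on the arrays formed pairs.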
